A study of Mus musculus with 8 samples.

Results

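The genes described here encode a glucose transporter and 9 enzymes of glycolysis: *Slc2a1*, *Hk1*, *Hk2*, *Gpi1*, *Pfkp*, *Aldoa*, *Pgk1*, *Eno1*, *Pkm* and *Ldha*. They were taken by symbol from the deposited gene tables, and all 10 were found among the 54281 genes listed. *Aldoa* had more than 1 row, and the row with the highest total count was used (a further row held 200 counts over all libraries). RNA-seq had been performed on epiblast-like cells (EpiLCs), which model the formative pluripotent state, from 4 lines without *Tet1* (KO1, KO9, KO15, KO25) and 4 WT lines, numbered WT7, WT12, WT17, WT34. Each line gave 1 library, and wherever 4 values of a genotype are listed they follow this order. All were blastocyst-derived ESC lines of the (B6 × 129S6)F1-*Tet1* tm1Koh strain, *Tet1*-/- or *Tet1*+/+, and the methods describe them as male. The KO lines carried the mutation from the blastocyst on, so that they had lacked TET1 before conversion as well as during it. The ESCs had been maintained on mouse embryonic fibroblasts and adapted to feeder-free medium with LIF and inhibitors of MEK and GSK3β, and all 8 lines had then been converted on fibronectin without Activin A, with bFGF at 12 ng/ml and KOSR at 1% in N2B27, until day 2.

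Glycolysis splits glucose into pyruvate. SLC2A1 carries glucose into the cell, hexokinases trap it as a phosphate, phosphofructokinase performs the committed step, and aldolase, phosphoglycerate kinase, enolase and pyruvate kinase act in the later steps, of which the kinases make ATP. Lactate dehydrogenase then reduces pyruvate to lactate. Most steps can be performed by several isoenzymes from separate genes, and tissues differ in the isoenzymes that they use. Mouse pluripotent cells are known to shift towards glycolysis as they leave the naive state, and transcription factors of the HIF and MYC families, which bind ACGTG or GCGTG and CACGTG sequences, are known to act on many of these genes.

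For that reason the 250 bases before the start site of each gene (RefSeq, build GRCm38.p6) were searched on both strands for ACGTG or GCGTG, here called HIF cores, and for CACGTG, here called E-boxes, each of which also contains a HIF core on both strands. All 10 genes had a window, and where RefSeq gave several start sites (3 for *Aldoa* and *Eno1*, 2 for *Hk1*, *Pkm* and *Ldha*) the one nearest the start of the principal GENCODE transcript was used. HIF cores were present in the windows of 6 of the 10 genes, and 38.6% of the 32851 windows of all genes and start sites held at least 1. At least 3 were present for *Pfkp* and *Ldha*, against 6.58% of all windows. An E-box was present only for *Ldha* among the 10, against 6.02% of all windows. Among the 19862 windows with a GC content of at least 49.6%, the lowest of the 10 genes, the shares were 50.8%, 10.1% and 7.81%. Windows of 4 genes are shown from the far end to the start site, with HIF cores in capitals on whichever strand they were found: *Gpi1* and *Pgk1*, which were lower in b2 libraries (described below), and *Hk2* and *Ldha*, which did not pass that test.
Gpi1, chr7:34230337-34230586, minus strand: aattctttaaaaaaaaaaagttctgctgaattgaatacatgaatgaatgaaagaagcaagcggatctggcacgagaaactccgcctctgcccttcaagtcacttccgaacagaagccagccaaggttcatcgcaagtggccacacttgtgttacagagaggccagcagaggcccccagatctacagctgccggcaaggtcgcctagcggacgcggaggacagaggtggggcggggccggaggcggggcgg
Pgk1, chrX:106186850-106187099, plus strand: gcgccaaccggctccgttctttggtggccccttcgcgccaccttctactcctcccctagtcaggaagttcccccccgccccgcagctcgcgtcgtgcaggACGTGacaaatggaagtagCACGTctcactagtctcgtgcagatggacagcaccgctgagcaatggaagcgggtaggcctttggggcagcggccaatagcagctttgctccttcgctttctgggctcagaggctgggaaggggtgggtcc
Hk2, chr6:82774455-82774704, minus strand: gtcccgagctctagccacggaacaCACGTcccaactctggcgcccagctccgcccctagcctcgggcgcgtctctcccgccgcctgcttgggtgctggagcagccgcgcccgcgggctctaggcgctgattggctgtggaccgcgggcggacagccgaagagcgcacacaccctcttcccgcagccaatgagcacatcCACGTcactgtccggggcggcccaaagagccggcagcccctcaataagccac
Ldha, chr7:46845554-46845803, plus strand: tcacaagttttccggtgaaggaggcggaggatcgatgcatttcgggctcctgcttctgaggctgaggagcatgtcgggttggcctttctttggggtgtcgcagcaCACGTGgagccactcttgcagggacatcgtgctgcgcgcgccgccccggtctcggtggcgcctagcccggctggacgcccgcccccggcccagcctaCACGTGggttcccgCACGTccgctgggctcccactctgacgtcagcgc
The *Pgk1* and *Hk2* windows hold 2 HIF cores each. In the *Ldha* window 5 HIF cores were found, 4 of them inside its 2 E-boxes. The *Gpi1* window holds none, and nor do the windows of *Hk1*, *Aldoa* and *Pkm*. This depends on the start site: over all 17 start sites of the 10 genes, 9 genes had at least 1 HIF core, with *Gpi1* the exception, and the other sites of *Hk1*, *Aldoa* and *Pkm* had 3, 1 and 1 per window. The shares given above are per window, and genes with several start sites have more windows. The share of all genes with a HIF core at any start site was not counted, so that 9 of 10 has no background here. Such a match is a run of letters and not evidence of binding.

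*Tet1* (ENSMUSG00000047146.17, chr10:62804570-62908996) had 45.3, 38.4, 53.5 and 54.2 CPM in the KO lines, against 816, 559, 775 and 851 CPM in the WT lines. CPM are counts scaled to the TMM-adjusted library size, the counts per library summed to between 13916400 and 23680640, and each library is its own line, so that p-values measure the spread between lines and their cultures together. The column names end in b2 (KO15, KO25, WT12 and WT34) or b1 (KO1, KO9, WT7 and WT17), a suffix that the sources do not explain, and b2 holds both the deepest library and the 2 shallowest. The library titled WT12 stood apart. *Xist*, the RNA of the inactive X chromosome, had 323 CPM there, against 4.17 to 12.4 CPM in the other 7 libraries, and the Y-linked *Eif2s3y* had 9.93 CPM there. *Ddx3y*, also Y-linked, had 16.2 CPM in WT12 and 44.1 to 84.4 CPM in the others, and *Uty* was likewise lowest in WT12 (12.4 CPM). Its title also differs from its cell line label (WT9), as does that of WT17 (labelled WT12), and titles were used here. The KO against WT values of the 10 genes are also given without it. All 8 libraries had the EpiLC marker *Dnmt3b* at 218 to 270 TPM and the pluripotency gene *Pou5f1* at 412 to 512 TPM. Other formative genes differed between the suffixes, with 5 of a list of 8 higher in b2 beside 13.7% of all genes, as described below. Of 10 markers of feeder fibroblasts, *Postn* was at 0 in every library and 2 reached a mean of 1 TPM, *Thy1* with 15.6 TPM.

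The question of the first comparison was whether glycolysis genes differ in EpiLCs that lack TET1. No gene of the 10 was called in KO against WT by edgeR's quasi-likelihood test at an adjusted p under 0.05, where 0.0405% of the 17272 genes tested were called (0.0289% higher and 0.0116% lower). DESeq2 and limma on TPM also called 0 of the 10. Only *Ldha* of the 10 had an unadjusted p under 0.05 in edgeR, which 970 of the 17272 genes tested reached. The log2 fold changes ran from −0.09 for *Slc2a1* to 0.24 for *Ldha*, with 9 of 10 positive and a median of 0.12, beside −0.0044 over all genes tested. Without WT12 the median was 0.02, and 7 of 10 were positive. The values were then −0.025 for *Slc2a1*, 0.14 for *Hk1*, 0.014 for *Gpi1*, 0.049 for *Aldoa*, 0.053 for *Pgk1* and 0.0099 for *Pkm*, and those of the other genes stand beside their own results. KO and WT lines overlapped for every one of the 10 genes, whereas the lines of 4.19% of all genes tested did not overlap (2.39% higher and 1.80% lower in KO). In bulk RNA, fewer cells of a type and less RNA per cell cannot be told apart.

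Between the column suffixes the picture differed. *Hk1*, *Gpi1*, *Aldoa* and *Pgk1* were lower in b2 than in b1 libraries with genotype in the model, by 0.29 to 0.44 on the log2 scale, and none of the 10 was higher. In that comparison 24.6% of all genes were called, 13.7% higher and 11.0% lower, so that 4 of 10 stands beside 11.0%. The b2 libraries all lay below the b1 libraries for 3 of the 10 genes, beside 12.4% of all genes (26.3% counting both directions, 13.9% with b2 above). The median of the 10 log2 fold changes was −0.23, beside 0.0077 over all genes tested, and *Slc2a1* alone was positive. Without WT12 the median was −0.25 and 5 genes were called, with *Ldha* added. Over all genes 2359 were higher and 1894 lower, a split that became 1933 and 2511 when library size alone was used for scaling, under which 6 of the 10 genes were called.

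**Figure D1:**
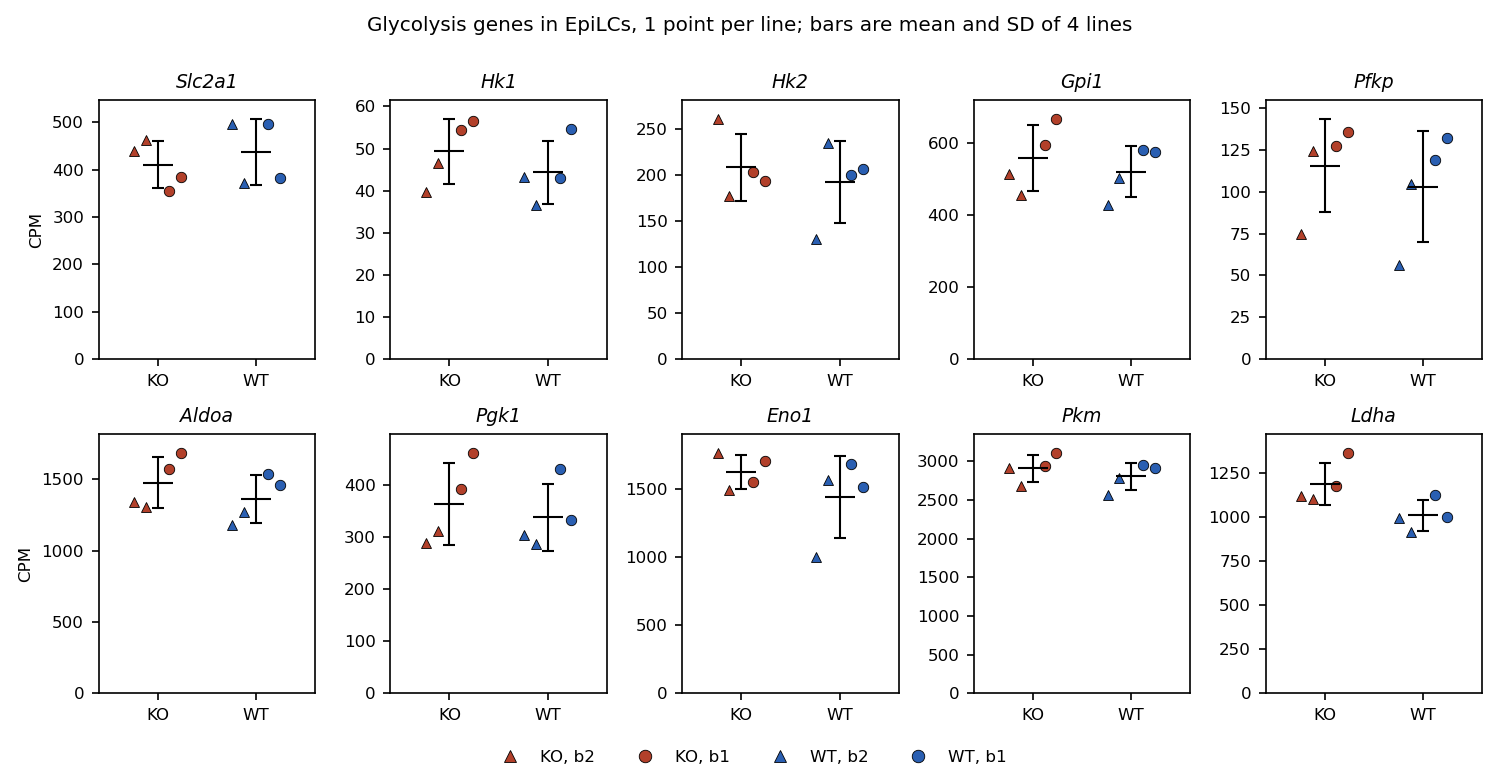
CPM of the 10 genes in each EpiLC line, with KO lines left of WT lines, triangles for b2 and circles for b1 libraries, while bars mark mean ± SD (n = 4). KO and WT points overlap in all 10 panels, and in the *Gpi1*, *Aldoa* and *Pgk1* panels every triangle lies below every circle.

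*Slc2a1* (ENSMUSG00000028645.11, chr4:119108711-119137983) encodes GLUT1, the glucose transporter of most growing cells. It had 356, 384, 439 and 463 CPM in the KO lines, against 381, 497, 496 and 372 CPM in the WT lines. The ranges overlapped, with KO1 below all WT lines and WT12 and WT17 above all KO lines. Its log2 fold change was −0.09 between KO and WT (standard error 0.13, adjusted p = 0.998 by edgeR) and 0.14 between b2 and b1 (standard error 0.12, adjusted p = 0.424). It did not pass either test, and with each line left out these values ran from −0.16 to −0.019 and from 0.068 to 0.25.

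Of the hexokinases, *Hk1* was called lower in b2 libraries and *Hk2* was not, and their fold changes were not tested against each other. *Hk2* (ENSMUSG00000000628.10, chr6:82725025-82774454), the isoenzyme of embryonic and insulin-responsive tissues, had 203, 193, 260 and 177 CPM in the KO lines, against 206, 130, 200 and 234 CPM in the WT lines. The 4 b2 libraries spanned the range from the lowest to the highest value (200 ± 58.5 CPM, SD, n = 4), whereas the b1 libraries lay close together (201 ± 5.65 CPM, SD, n = 4). Neither its KO against WT value (0.11 ± 0.18, log2 fold change and standard error) nor its b2 against b1 value (−0.01 ± 0.18) passed the test, and without WT12 they were −0.04 and 0.15.

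*Hk1* (ENSMUSG00000037012.18, chr10:62268855-62379908), the isoenzyme found in nearly all tissues, was the gene with the fewest counts of the 10. It had 39.8, 46.5, 43.4 and 36.7 CPM in the b2 libraries KO15, KO25, WT12 and WT34, against 54.5, 56.4, 54.5 and 42.9 CPM in the b1 libraries KO1, KO9, WT7 and WT17. WT17 alone of the b1 libraries fell inside the range of the b2 libraries. The log2 fold change was −0.32 (standard error 0.10, adjusted p = 0.0423 by edgeR), and the call did not hold when KO1, KO9, KO15, WT7 or WT34 was left out (adjusted p of 0.0936 to 0.141). Between KO and WT its log2 fold change was 0.15 (standard error 0.15). *Hk1* lies 425 kb from *Tet1* on chromosome 10, so that alleles linked to the targeted locus and the genotype cannot be told apart for it.

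A further value bears most on *Hk1*. The transcript length that the quantification had assigned to it, recovered from the ratio of counts to TPM and set relative to the other libraries, was 1.52 in KO25 and in WT34 and 0.616 to 0.873 in 5 of the other libraries, with KO9 between. Its longest and shortest values differed 2.47-fold, beyond all but 9.29% of the genes tested, whose median ratio was 1.20. The TPM of *Hk1* therefore ran from 4.17 in WT34 to 13.2 in WT17, a wider spread than that of its CPM. With these lengths as offsets, the KO against WT value turned to −0.10, and the b2 against b1 value was −0.53 but no longer passed (adjusted p = 0.247). For *Gpi1*, *Aldoa*, *Eno1* and *Pkm* the lengths in b2 libraries all lay below those in b1 libraries, and for the others they overlapped. *Gpi1* had 0.945 to 0.966 in b2 and 1.035 to 1.058 in b1, and *Pkm* 0.952 to 0.965 and 1.019 to 1.071. With offsets the b2 against b1 value of *Pkm* was −0.006, beside −0.12 without them, and that of *Aldoa* was −0.25 and still passed. *Hk1os*, an antisense gene, overlaps *Hk1*, and whether the quantification used strand is not given in the sources used here.

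*Gpi1* (ENSMUSG00000036427.5, chr7:34201330-34230336), which converts glucose phosphate to fructose phosphate, had 516, 457, 429 and 503 CPM in KO15, KO25, WT12 and WT34, against 596, 667, 576 and 581 CPM in KO1, KO9, WT7 and WT17. Every b2 library lay below every b1 library. Its level in b2 was 0.788 times that in b1 (log2 fold change −0.34, standard error 0.07, adjusted p = 0.0084 by edgeR). With transcript length offsets the value was −0.21 and no longer passed (adjusted p = 0.0834).

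*Pfkp* (ENSMUSG00000021196.14, chr13:6579768-6648777) encodes the platelet type of phosphofructokinase. It had 74.7, 125, 56.2 and 105 CPM in KO15, KO25, WT12 and WT34, against 127, 136, 132 and 119 CPM in KO1, KO9, WT7 and WT17. KO15, WT12 and WT34 lay below all b1 libraries, and KO25 lay inside the b1 range. Its b2 against b1 value was the most negative of the 10 genes (−0.52) but had a standard error of 0.20 and did not pass (adjusted p = 0.0841 by edgeR). It passed when KO25 (−0.71, adjusted p = 0.0272) or WT34 (−0.69, adjusted p = 0.0428) was left out, and without WT12 it was −0.36 and did not pass. It also passed in DESeq2 (adjusted p = 0.022) and in edgeR without a filter on low counts. Between KO and WT its value was 0.17 (standard error 0.26), and −0.04 without WT12. *Pitrm1* overlaps its 3′ end on the opposite strand.

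*Aldoa* (ENSMUSG00000030695.16, chr7:126795234-126800751), the muscle and general form of aldolase, which splits fructose bisphosphate, had 1340, 1307, 1176 and 1270 CPM in KO15, KO25, WT12 and WT34, against 1568, 1679, 1456 and 1538 CPM in KO1, KO9, WT7 and WT17. The b2 libraries again all lay below the b1 libraries. Its b2 level was 0.816 times that of b1 (log2 fold change −0.29, standard error 0.06, adjusted p = 0.00526 by edgeR). Among the 4 genes called, *Aldoa* was the only one that also passed with limma on log2(TPM + 1) and on log2(TPM + 0.1).

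*Pgk1* (ENSMUSG00000062070.12, chrX:106187100-106203699), the first ATP-producing enzyme of the pathway, is X-linked. It had 288, 311, 304 and 286 CPM in KO15, KO25, WT12 and WT34, against 392, 460, 332 and 430 CPM in KO1, KO9, WT7 and WT17. Every b2 library lay below every b1 library, and WT12, the library with high *Xist*, lay among the other b2 libraries. The b2 level was 0.738 times the b1 level (log2 fold change −0.44, standard error 0.09, adjusted p = 0.00808 by edgeR), and without WT12 the log2 fold change was −0.48 (adjusted p = 0.00712). The *Pgk1* row held 58.0% of the counts of *Pgk1* and its near-identical copies, as described below, and with the copies added its value was −0.34 (adjusted p = 0.0153).

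*Eno1* (ENSMUSG00000063524.13, chr4:150236721-150248879), the general enolase, had 1548, 1704, 1761 and 1495 CPM in the KO lines, against 1516, 1000, 1685 and 1565 CPM in the WT lines. Apart from WT12, all lines lay between 1495 and 1761 CPM. Its log2 fold changes of 0.18 between KO and WT (standard error 0.15) and −0.16 between b2 and b1 (standard error 0.14) did not pass. Without WT12 they were 0.03 and −0.03. Without a filter on low counts, *Eno1* passed between b2 and b1 in edgeR (−0.19, adjusted p = 0.0262).

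*Pkm* (ENSMUSG00000032294.17, chr9:59656368-59679375), the pyruvate kinase of most tissues, varied least between lines. It had 2938, 3103, 2912 and 2686 CPM in the KO lines, against 2910, 2571, 2959 and 2783 CPM in the WT lines. Its log2 fold changes were 0.05 between KO and WT and −0.12 between b2 and b1 (standard errors 0.08 and 0.06), and neither passed. The M1 and M2 forms of the enzyme arise by splicing of this gene and were not resolved, because the tables are summed per gene.

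*Ldha* (ENSMUSG00000063229.15, chr7:46841475-46855627), the subunit that favours lactate production, had the lowest p of the 10 genes between the genotypes. It had 1176, 1360, 1117 and 1100 CPM in the KO lines, against 1002, 994, 1126 and 915 CPM in the WT lines. Of the WT lines only WT17 reached the range of the KO lines. The log2 fold change of 0.24 (standard error 0.10, unadjusted p = 0.0345 by edgeR) did not pass after adjustment (adjusted p = 0.825), and was 0.23 without WT12. Between b2 and b1 it was −0.18 (standard error 0.07, adjusted p = 0.0869), and −0.22 without WT12 (adjusted p = 0.0382). It also passed in DESeq2 (adjusted p = 0.0478) and in edgeR without a filter on low counts (adjusted p = 0.017).

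**Figure D2:**
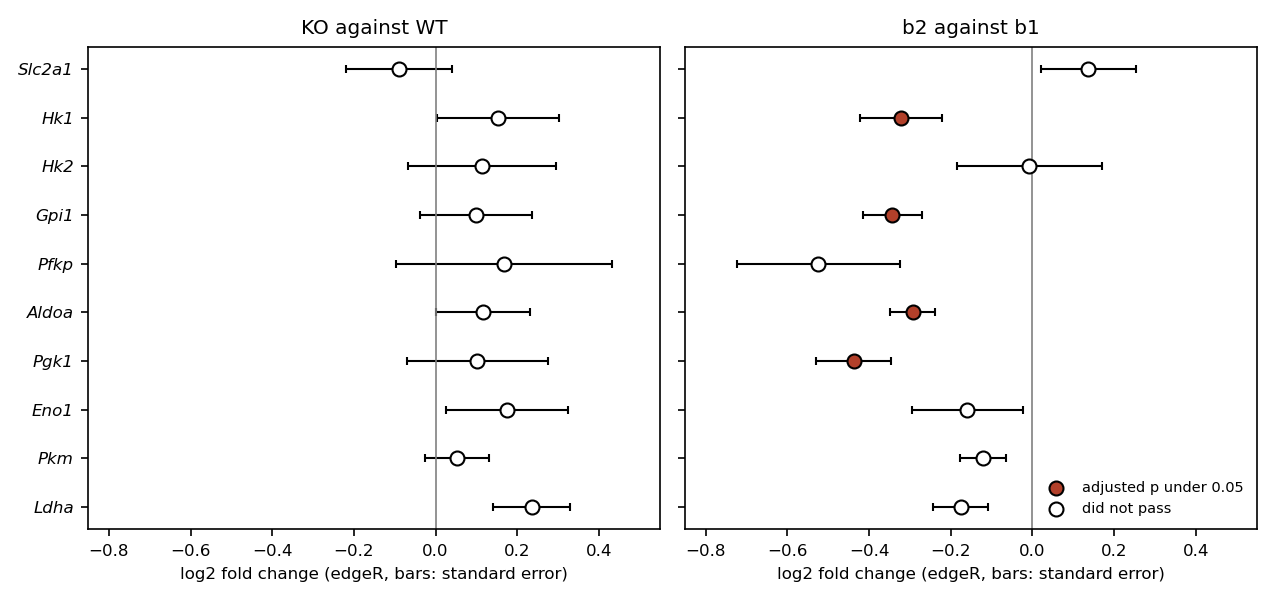
Log2 fold changes with standard errors from edgeR for KO against WT (left) and b2 against b1 (right), 1 point per gene. Filled points passed an adjusted p of 0.05: none on the left, and *Hk1*, *Gpi1*, *Aldoa* and *Pgk1*, between −0.29 and −0.44, on the right.

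Whether the genotype difference itself differed between the suffixes was tested as an interaction. No gene passed in edgeR, where 227 of 17272 had an unadjusted p under 0.05, and none of the 10 genes was among those 227 (lowest unadjusted p = 0.215, *Slc2a1*). As a description, with 2 libraries an arm, the b2 against b1 value of *Slc2a1* was 0.28 within KO and −0.028 within WT lines, and that of *Hk2* was 0.14 within KO and −0.17 within WT lines. *Gpi1* had −0.38 within KO and −0.33 within WT lines, *Aldoa* −0.30 and −0.31, *Hk1* −0.37 and −0.29, and *Pgk1* −0.51 and −0.38, and these 4 had been called over the same libraries.

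Levels of different genes can be compared only per transcript length, which TPM provide. Over the 8 lines, *Eno1* had the highest level of the 10 genes (2024 ± 249 TPM, SD, n = 8 here and below) and *Pkm* the next (844 ± 32.0 TPM). *Aldoa* (582 ± 66.2 TPM), *Ldha* (433 ± 44.6 TPM) and *Gpi1* (263 ± 26.0 TPM) followed, then *Slc2a1* (123 ± 21.6 TPM) and *Pgk1* (92.6 ± 19.0 TPM). *Hk2* (27.6 ± 5.07 TPM), *Pfkp* (19.3 ± 5.28 TPM) and *Hk1* (9.32 ± 3.10 TPM) were the lowest of the 10. The ranges over lines overlapped between the neighbours *Aldoa* and *Ldha*, *Slc2a1* and *Pgk1*, *Hk2* and *Pfkp*, and *Pfkp* and *Hk1*, and not between the others. *Aldoa* exceeded *Ldha* in all 8 lines, whereas *Slc2a1* exceeded *Pgk1* in 6.

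The order depends on the lengths assigned, most of all for *Eno1*. Its TPM were 1.32 times its CPM, a ratio of 0.137 to 0.487 for the other 9 genes and of 0.263 for its near-identical copy *Eno1b*. Set instead per kilobase of the longest coding transcript, *Pkm* led with 1175 ± 69.4 CPM per kb, before *Aldoa* (915 ± 110 CPM per kb), *Eno1* (757 ± 117 CPM per kb) and *Ldha* (605 ± 74.9 CPM per kb). *Pgk1* (192 ± 37.1 CPM per kb) then stood above *Gpi1* (187 ± 27.3 CPM per kb) and *Slc2a1* (130 ± 17.7 CPM per kb), the reverse of their order in TPM. *Hk2*, *Pfkp* and *Hk1* were the lowest on that scale too. The place of *Pgk1* on either scale also rests on how reads were divided among identical sequences. Its copy *Gm5537*, described below, had 99.4 TPM on average, beside 92.6 TPM in the *Pgk1* row. The 10 genes together took 4322 to 4799 TPM in KO lines and 3800 to 4951 TPM in WT lines, with WT12 lowest and WT17 highest. Without *Eno1* the sums were 2315 to 2607 TPM in KO lines and 2195 to 2639 TPM in WT lines.

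Isoenzyme choice was described as the share of each gene in the summed TPM of its family. Of the glucose transporter transcripts, *Slc2a1* took 53.4% ± 8.68 and *Slc2a3*, the high-affinity transporter of embryonic and neural cells, 46.3% ± 8.65 (SD, n = 8). *Slc2a1* took 50.2%, 38.1%, 63.0% and 44.3% in the KO lines, against 54.1%, 58.5%, 57.5% and 61.4% in the WT lines. KO lines thus spread on both sides of the WT lines, which lay close together. The KO mean of 48.9% ± 10.6 and the WT mean of 57.9% ± 3.00 (SD, n = 4 each) did not differ beyond that spread (two-sided exact permutation p = 0.2, adjusted p = 0.789 over 6 shares). Without KO15, the KO line with the highest share, the difference was −13.7 percentage points with an unadjusted exact p of 0.0286, the smallest that 3 against 4 lines allow. *Slc2a3* itself had 273, 442, 210 and 479 CPM in the KO lines, against 267, 283, 281 and 233 CPM in the WT lines.

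Hexokinase transcripts were mostly *Hk2* (74.6% ± 7.86, SD, n = 8), with *Hk1* at 25.2% ± 7.71. The assigned length of *Hk1* enters this share, and *Hk2* ran from 63.3% in WT12 to 88.0% in WT34. *Hk3* and *Hkdc1* each took under 1%. Phosphofructokinase was the family in which the listed gene was not the main one. The liver type *Pfkl* took 57.8% ± 6.54, *Pfkp* 21.6% ± 5.19 and the muscle type *Pfkm* 20.6% ± 3.19. *Pfkp* was lowest in WT12, with 11.3% against 18.6% to 27.8% in the other 7 lines.

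*Aldoa* made up nearly all aldolase transcripts (96.8% ± 0.756), with *Aldoc*, the brain form, at 3.22% ± 0.752. *Pgk1* and *Pkm* had no partner above 1 TPM, since the testis form *Pgk2* and the liver and red cell form *Pklr* had means below that, and their shares were not tested. *Eno1* took 80.7% ± 1.91 and *Eno1b* 18.5% ± 2.00 of enolase, a division that rests on how reads were split between near-identical sequences. The muscle form *Eno3* and the neuronal form *Eno2* each took under 1%. *Ldha* took 71.7% ± 3.41 of lactate dehydrogenase, from 68.0% in KO25 to 78.9% in WT12, and most of the rest was *Ldhb*, the subunit that favours pyruvate production. Of the 6 shares tested, none passed between KO and WT or between b2 and b1. The lowest p between the suffixes was that of *Aldoa*, with 97.2% ± 0.715 in b2 and 96.3% ± 0.534 in b1 libraries (SD, n = 4 each, exact permutation p = 0.0857, adjusted p = 0.514).

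**Figure D3:**
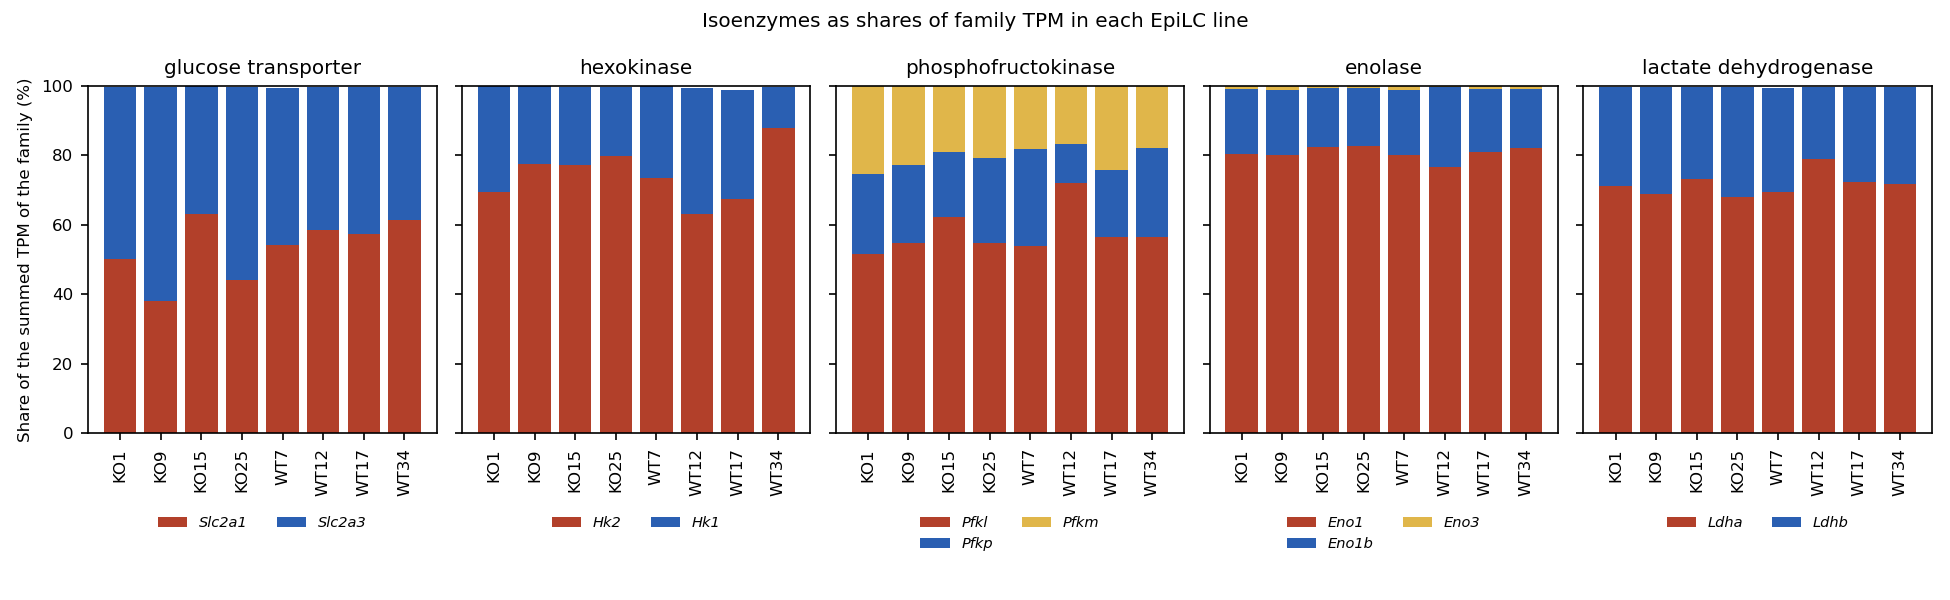
Stacked bars give the share of each isoenzyme in the summed TPM of its family in every line, KO lines left of WT lines, for 5 families (isoenzymes with a mean share of at least 0.5%). *Slc2a1* varies most between KO lines, from 38.1% to 63.0%, and *Pfkl* rather than *Pfkp* is the largest part of phosphofructokinase in all 8 lines.

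Several of the 10 genes have near-identical copies elsewhere in the genome, defined here as transcripts with at least 95% identity over at least 400 bases, and the division of reads among them is uncertain. *Eno1b* is 99.5% identical to *Eno1* over 1736 bases and had 1748 CPM on average, so that the *Eno1* row held only 46.2% of the counts of *Eno1* and its copies. That share was 37.1% in WT12 and 46.1% to 49.2% in the other 7 lines. *Eno1* with its copies had 3307, 3700, 3590 and 3039 CPM in the KO lines, against 3263, 2697, 3549 and 3198 CPM in the WT lines, and its KO against WT value was then 0.10. For *Pgk1*, the pseudogene *Gm5537* is identical over 1252 bases and had 239 CPM on average. The row of the named gene held 98.2% of the counts for *Gpi1* (copy *Gm1840*) and over 99% for *Pkm* and *Ldha*, and no such copy was found for the other 5 genes. With all copies added, the same number of genes was called, 0 between KO and WT and 4 between b2 and b1.

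The rest of glucose metabolism was examined with lists of related genes, whose counts between b2 and b1 stand beside the 13.7% of all genes called higher and 11.0% called lower. Among 14 other glycolysis enzymes and isoenzymes tested, 3 were lower in b2 than in b1 libraries and none higher, with a median log2 fold change of −0.22. These were *Eno2* (−1.63), *Aldoc* (−0.71) and *Pfkm* (−0.52), whose adjusted p were 0.00155, 0.02 and 0.0057 by edgeR. *Eno2* and *Aldoc* are minor isoenzymes here, whereas *Pfkm* took 20.6% of its family, close to *Pfkp* with 21.6%. *Eno2* had 2.34 ± 0.735 CPM in b2 and 7.19 ± 0.462 CPM in b1 libraries (SD, n = 4 each), which did not overlap. *Pfkm* had 75.1 ± 14.6 CPM in b2 and 108 ± 10.6 CPM in b1 libraries, and *Aldoc* had 16.7 ± 4.62 and 27.3 ± 2.55 CPM (SD, n = 4 each). *Gapdh* (−0.03), *Tpi1* (−0.15) and *Pgam1* (−0.01), whose products act between aldolase and enolase, did not pass.

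Of 8 other glucose and lactate transporters tested, 1 was higher and 2 were lower in b2, and over all genes 24.6% were called in either direction. *Slc16a3*, which encodes the lactate exporter MCT4, had 236, 166, 193 and 223 CPM in KO15, KO25, WT12 and WT34, against 109, 97.9, 101 and 120 CPM in KO1, KO9, WT7 and WT17. Its b2 level was 1.91 times the b1 level (log2 fold change 0.93, standard error 0.11, adjusted p = 0.00064 by edgeR). *Slc2a4*, the insulin-responsive glucose transporter, and *Slc2a8*, an intracellular one, were lower (−1.47 and −0.91) at levels of at most 16.0 CPM.

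Regulators of glycolytic flux included the most negative value in these metabolic lists. *Txnip*, which encodes a glucose-induced protein that limits glucose uptake, had 145, 111, 93.3 and 170 CPM in KO15, KO25, WT12 and WT34, against 506, 576, 804 and 571 CPM in KO1, KO9, WT7 and WT17. Its b2 level was 0.212 times that of b1 (log2 fold change −2.24, standard error 0.20, adjusted p = 0.000163 by edgeR). Of 12 regulators tested, 3 were lower and 2 higher. *Pdk4*, a kinase that inhibits pyruvate dehydrogenase, was lower (−1.02), as was the opposing phosphatase *Pdp1* (−0.44). The 2 that were higher were *Tigar* (0.50) and *Pfkfb3* (0.32, adjusted p = 0.0491 by edgeR).

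**Figure D4:**
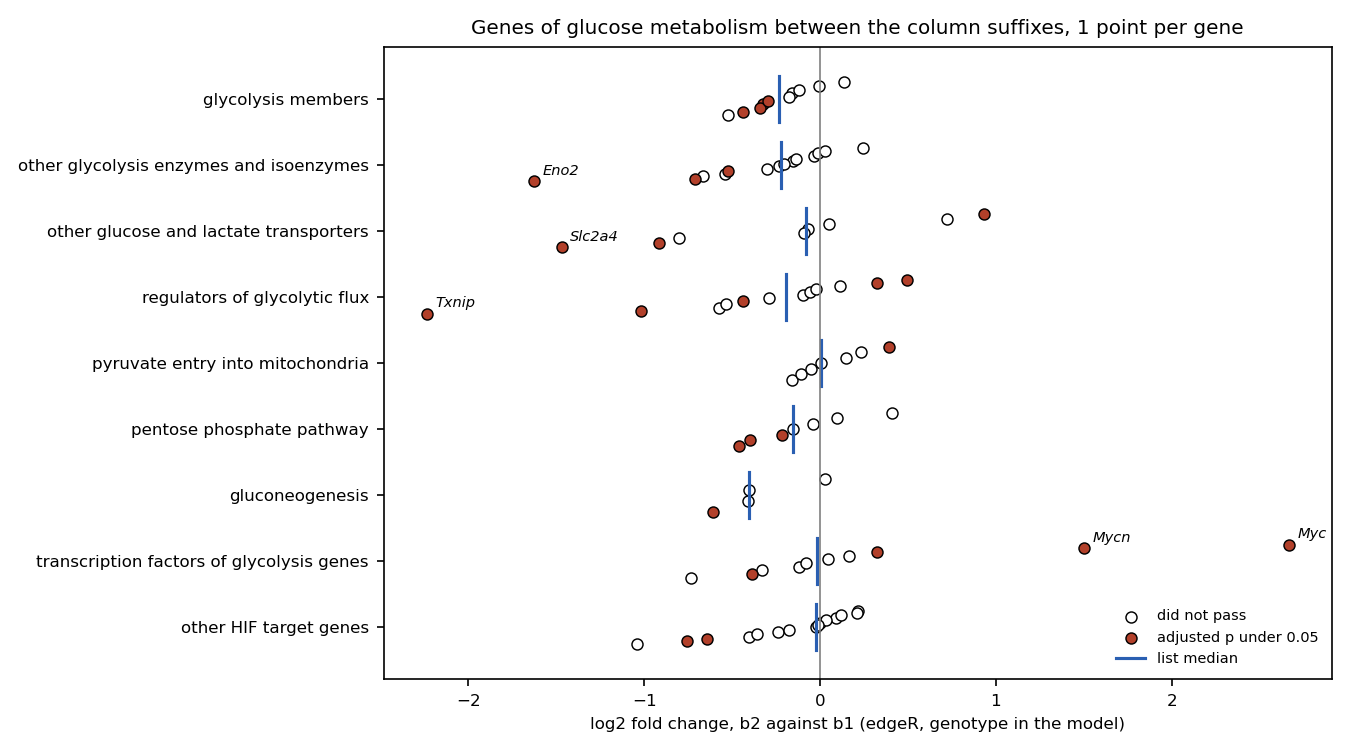
Log2 fold changes between b2 and b1 libraries for the genes tested of each list, with filled points for an adjusted p under 0.05 and a blue line at the median of the list. The 10 glycolysis genes lie between −0.52 and 0.14, with single genes of other lists far outside that range (*Txnip* −2.24, *Myc* 2.67).

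Transcription factors with a known role at glycolysis genes differed in both directions. *Myc* had 75.3, 53.6, 39.0 and 81.1 CPM in KO15, KO25, WT12 and WT34, against 10.0, 8.62, 9.46 and 11.0 CPM in KO1, KO9, WT7 and WT17, and *Mycn* had 286, 328, 235 and 306 CPM against 102, 90.5, 101 and 114 CPM in the same lines. The b2 levels were 6.35 and 2.83 times those of b1 (adjusted p = 0.000147 and 7.45e-05 by edgeR). *Hif1a*, the oxygen-regulated subunit of HIF, was higher (0.33) and its partner *Arnt* lower (−0.39), so that 3 of 10 factors were higher and 1 was lower. Of 15 other HIF target genes tested, *Vegfa* (−0.64) and *Ddit4* (−0.76) were lower and none was higher, a share near the 11.0% of all genes called lower. Whether the levels of these factors bear on the 10 glycolysis genes was not tested.

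**Figure D5:**
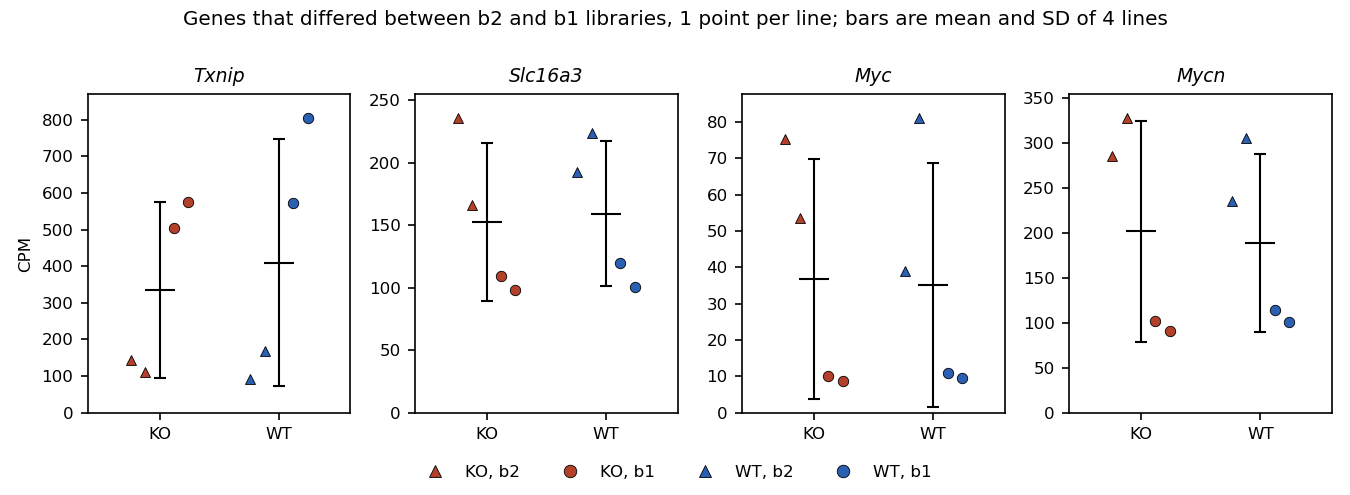
CPM of *Txnip*, *Slc16a3*, *Myc* and *Mycn* in each line, KO left of WT, with triangles for b2 and circles for b1 libraries while bars mark mean ± SD (n = 4). Within each genotype the triangles lie apart from the circles, below them for *Txnip* (93.3 to 170 against 506 to 804 CPM) and above them for the others.

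In neighbouring pathways, 3 of 7 genes of the pentose phosphate pathway were lower in b2 (*Rpe* −0.46, *Rpia* −0.40 and *Tkt* −0.22) and none was higher. Of 7 genes for the entry of pyruvate into mitochondria, *Pdhx*, a component of pyruvate dehydrogenase, was higher (0.39) and none was lower. *Pck2*, the mitochondrial enzyme that makes phosphoenolpyruvate, was lower (−0.61) among 4 gluconeogenesis genes tested. Of 4 factors that control *Pkm* splicing, *Srsf3* (0.54) and *Hnrnpa2b1* (0.17) were higher, while *Ptbp1* (0.03) and *Hnrnpa1* (−0.07) did not pass.

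None of these genes passed between KO and WT in edgeR. An unadjusted p under 0.05 was reached by *Slc16a1*, the lactate transporter MCT1 (log2 fold change 0.15, unadjusted p = 0.0467), *Pdp1* (−0.46, 0.042), *Dlat* of pyruvate dehydrogenase (0.23, 0.0111), *G6pdx*, the entry enzyme of the pentose phosphate pathway (−0.30, 0.0179), and the HIF target *Bnip3* (−0.29, 0.0118). Each was the only such gene of its list, among 8, 12, 7, 7 and 15 genes tested, and the remaining metabolic lists had none. Over all genes, 970 of 17272 reached that p. *Slc16a1* had 207, 205, 207 and 203 CPM in the KO lines, against 177, 197, 178 and 188 CPM in the WT lines. Its adjusted p was 0.867. KO and WT lines did not overlap for *Slc16a1*, *Dlat* and *Gapdh*, which were higher in KO (2.39% of all genes tested), and for *Bnip3*, which was lower (1.80%). Each was the only such gene of its list, among 8, 7, 14 and 15 genes tested. The remaining metabolic lists, of 12, 7, 4, 10 and 4 genes tested, had none, and over all genes the share in either direction was 4.19%.

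Some markers of cell state differed with the suffix as well, in a comparison where 13.7% of all genes were called higher and 11.0% lower. Of 8 formative and primed genes, 5 were higher in b2 (*Dnmt3a*, *Sox3*, *Lef1*, *Pou3f1* and *Fgf5*) and none lower, and the summed CPM of the list were 3374 to 3942 in b2 and 2812 to 3187 in b1 libraries. Of 10 naive genes only *Klf2* was higher, and the sums of 141 to 328 CPM in b2 and 238 to 337 CPM in b1 libraries overlapped. Of 5 core pluripotency genes only *Sall4* was higher and none was lower. The feeder fibroblast list summed to 16.6 to 31.3 CPM in b2 and 27.3 to 42.6 CPM in b1 libraries, with only *Thy1* lower among 5 genes tested. *Eomes* of the primitive streak (2 genes tested) and *Foxa2* of the endoderm (6 tested) were higher in b2, from lists that summed to at most 17.7 CPM. The part of these differences in the glycolysis genes was not tested.

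The 10 genes were averaged over each of the 8 libraries as the mean of their centred log2 CPM, a profile that not every gene followed (*Slc2a1* was highest in WT12 and *Hk2* in KO15). It was highest in KO9 (0.21) and lowest in WT12 (−0.30), and lay between −0.10 and 0.11 in the other 6 lines. Over these 8 libraries and among 9485 other genes with at least 10 CPM, those with the highest Pearson correlation to it were *Rps6* (0.991), *Spata5l1* (0.990), *Rpl34* (0.987), *Gm10288* (0.984) and *Mrps16* (0.984). *Rps6* and *Rpl34* encode ribosomal proteins and *Mrps16* a mitochondrial one. The points share library depth and suffix, and WT12 lies at the end of the profile, so that these correlations are descriptions of 8 libraries.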

How the data were processed

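RNA-seq libraries of day 2 EpiLCs, 4 KO and 4 WT, were analysed. Reads had been trimmed (Trim Galore 0.6.4), quantified (Salmon 0.14.1) and summarized to genes (R 4.0.2, mm10) according to the submitters' notes. The authors deposited estimated counts and a table of TPM from the same quantification. Here the deposited estimated counts were taken to the nearest whole number (27.8% of values changed). Genes were kept by filterByExpr (17272) and TMM-scaled, and groups were compared in edgeR 4.0.16 under R 4.3.3 by quasi-likelihood tests, adjusting p-values by Benjamini-Hochberg over those genes. Salmon divides reads among near-identical transcripts, which affects counts as well as TPM. It also assigns lengths per library, which enter TPM and the length offsets, whereas the counts were otherwise tested without them. Isoenzyme shares were compared by two-sided exact permutation over 70 assignments, whose smallest p is 0.0286. Positions are from GENCODE M21 (53544 of 54281 IDs matched with their version), and near-identical transcripts were found with blastn 2.17.0. Alternatives were other scalings and filters, DESeq2 1.42.0, limma 3.58.1 on log2(TPM + 1) and log2(TPM + 0.1), length offsets, the suffix as a block, fits within a suffix or genotype, and each line left out. Added copies, levels per kilobase and *Xist* with Y-linked genes were examined after values had been seen. The 10 genes and all lists were chosen with earlier results of these data known. From each other list up to 4 genes with the smallest p in each comparison were named, and isoenzymes of the families, of which some are not reported here; *Tpi1*, *Fgf5* and *Postn* were named beyond this rule after their values were seen.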

Additional observations from a re-analysis of the deposited data

Results flagged for a closer look

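*Xist* had 323 CPM in WT12, against 8.43 to 12.4 CPM in the other WT lines, a gap that made up 0.987 of the range of the 4 lines. It was the only 1 of 88 groups of 4 lines examined (the 10 genes in CPM and TPM, 18 other genes and the isoenzyme shares) in which a line stood this far from the rest, where chance flags about 1 in 20. *Xist* and the Y-linked genes entered these groups after their values had been seen. The groups also share genes and lines, so that the count is a description. The Y-linked *Eif2s3y* had 9.93 CPM in the same library.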

How the results depend on the processing

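In the comparison of KO with WT, 0 of the 10 genes were called under any of 20 alternatives. The number of all genes called was 7, against 96 with DESeq2, 3 with transcript length offsets, 2 and 3 with limma on log2(TPM + 1) and log2(TPM + 0.1), 28 with the suffix as a block, 19 within b1 libraries and 6 to 10 with each line left out. *Hk1* turned to −0.10 with length offsets and to −0.070 and −0.068 with limma. With each line left out *Hk2* ran from −0.038 to 0.22 (negative without WT12 and, at −0.011, without KO15), *Pgk1* from −0.033 to 0.24 (negative without KO9) and *Pfkp* from −0.038 to 0.33 (negative without WT12). Within b1 libraries *Hk2* was −0.036, and within b2 libraries *Slc2a1* was 0.060. Between b2 and b1, 4253 genes were called, against 2468 with length offsets, 1587 and 1624 with limma, 1346 of 15334 within KO lines, 450 of 15341 within WT lines and 2655 (without KO9) to 4807 with each line left out (2763 without WT7). Of the 10 genes 4 were called, against 7 with no filter, 6 with DESeq2 (*Pfkp* and *Ldha* added) and with library size alone, 2 with length offsets, 1 with limma at either pseudocount, 1 within KO lines, 0 within WT lines and 3 to 5 with each line left out. *Hk2* was 0.14 within KO lines and −0.16 to 0.15 with each line left out (positive without KO25, WT7 and WT12), and *Slc2a1* was −0.028 within WT lines. On summed CPM, the *Hk2* share (KO against WT) turned to −0.194 and the *Eno1* share (b2 against b1) to −0.491 percentage points. With each line left out, the KO against WT difference was −13.7 to −5.36 points for *Slc2a1*, −0.165 to 8.07 for *Hk2* (negative without WT12), −2.05 to 3.47 for *Pfkp* (negative without WT12) and −0.115 to 0.507 for *Aldoa* (negative without KO15 and WT7). The b2 against b1 difference was 0.572 to 1.14 points for *Aldoa* and 0.00564 to 2.00 for *Eno1*, with unadjusted exact p of 0.0286 without KO25 and without WT12. The cause of these changes was not tested. Fits within 1 suffix or genotype hold 2 libraries an arm.

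No paired analysis was possible because the KO and WT line numbers share none. The lines are described as littermate pairs, and which KO line belongs with which WT line is not given in the labels. The standard errors of the KO against WT values were 0.08 to 0.26 on the log2 scale, and differences of that size were not detectable with 4 lines a group. Differences larger than their standard error can also be missed after adjustment over 17272 genes. *Ldha*, at 0.24 with a standard error of 0.10, had an adjusted p of 0.825 by edgeR. The absence of differences is therefore not shown. What the suffix stands for is not given in the sources used here, and protein levels, flux and the *Pkm* splice forms were not measured in these tables.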
